A study of Mus musculus with 15 samples.

Results

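The genes described here are 10 factors that act in sequence as dividing progenitors of the embryonic cortex turn into glutamatergic neurons, out of 53337 genes in the table. They were chosen by name and role with a rule that used no measured value, although earlier results of these data were known. They were the T-box factor Eomes (also called Tbr2), the basic helix-loop-helix (bHLH) factors Neurog1, Neurog2, Neurod1, Neurod2, Neurod4 and Neurod6, the zinc-finger factor Insm1, the antiproliferative factor Btg2 (also called Tis21) and the somatostatin receptor Sstr2. The libraries were made from dorsal forebrain of C57BL/6J mouse embryos at embryonic day 18 (E18), whose dams had been infused with arginine vasopressin (AVP) or with saline through pregnancy, and the question was whether prenatal AVP exposure changed the transcriptome of the fetal brain in either sex. Each library was 1 brain, and the groups held 4 saline and 4 AVP males, and 4 saline and 3 AVP females, with saline called vehicle in the labels. The paper excluded 1 further AVP female as an outlier for high variance. The brains, with the excluded one, came from 8 litters, and the paper states that those of 1 sex and treatment came from independent litters. By that account each litter gave 1 male and 1 female brain, so males and females of a treatment were littermates. Since the labels do not tie libraries to litters, litter was not modelled and the p-values treat brains as independent. By the paper's account this bears on the comparisons that hold both sexes. The infusion reached the dam, so exposure of the embryo itself was not measured by these libraries. Levels are in TPM, a unit that divides reads by transcript length and by the total of the library, summed over the transcripts of each gene, and libraries carry the numbers of the submitters' titles, 1 to 15. The columns of the table carry other numbers in 2 runs with a gap between them, the first run holding libraries 1 to 7 and the second libraries 8 to 15, and what set the runs apart is not given in the labels.

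In the developing cortex, radial glia at the ventricle divide to give intermediate progenitors, which move to the subventricular zone, divide again and produce pairs of neurons. Neurog2, and to a lesser degree Neurog1, starts this step by binding E-box DNA together with E proteins, Eomes and Insm1 mark and promote the intermediate progenitor state, Btg2 marks divisions that give neurons, and Neurod1 and Neurod4 act as the cells leave the cell cycle. Neurod2 and Neurod6 are then kept on in postmitotic projection neurons, while Sstr2, a receptor for the neuropeptide somatostatin, is made by intermediate progenitors and by young neurons.

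The check of the labels came first. Markers of dorsal forebrain were present in every library, with Emx1 at 24.5 to 37.4 TPM, Emx2 at 9.65 to 29.00 TPM and Lhx2 at 98.3 to 167 TPM, and the 8 markers of dorsal midbrain summed to 0.234 to 1.17 TPM. The library labelled saline male 12 went against its sex label, with 266 TPM of Xist and 0.489 TPM over Y-linked genes, where the other males held 102 to 155 TPM over Y-linked genes and no more than 1.13 TPM of Xist. It was kept under its label, and values without it are given beside the comparisons in males, over both sexes and between the sexes. AVP female 10 had the highest sums of the lists for Cajal-Retzius cells (266 TPM), thalamus (137 TPM) and radial glia (3385 TPM). The Cajal-Retzius and thalamus lists share Calb2, which ranged from 9.89 to 87.2 TPM over the libraries, so their sums are not independent. The thalamus genes Gbx2 and Tcf7l2 reached no more than 0.276 and 2.97 TPM. Fabp7, of the radial glia list, had a mean of 1863 TPM. Markers of choroid plexus, a tissue attached to the dorsal midline, ranged from 8.86 to 2278 TPM.

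The 6 bHLH genes are close relatives, so their sequences were compared to see whether reads could be split between them. The 60 coding bases below run from the DNA-contacting basic region into the first helix, 5′ to 3′ on the coding strand of GENCODE M21 transcripts (GRCm38), and capitals mark the 28 bases that are identical in all 6 genes.
Neurog1, chr13:56251579-56251638, minus strand: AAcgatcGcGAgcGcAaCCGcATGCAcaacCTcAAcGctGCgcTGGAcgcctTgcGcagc
Neurog2, chr3:127634080-127634139, plus strand: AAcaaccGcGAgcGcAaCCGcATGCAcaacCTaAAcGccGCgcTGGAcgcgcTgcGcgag
Neurod1, chr2:79454660-79454719, minus strand: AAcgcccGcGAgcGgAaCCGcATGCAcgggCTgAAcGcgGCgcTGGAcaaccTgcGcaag
Neurod2, chr11:98327896-98327955, minus strand: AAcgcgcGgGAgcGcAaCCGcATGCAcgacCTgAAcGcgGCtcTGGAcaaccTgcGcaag
Neurod4, chr10:130271068-130271127, minus strand: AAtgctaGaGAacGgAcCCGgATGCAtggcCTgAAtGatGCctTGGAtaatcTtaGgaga
Neurod6, chr6:55679294-55679353, minus strand: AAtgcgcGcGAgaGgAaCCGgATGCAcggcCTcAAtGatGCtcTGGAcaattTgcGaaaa
Over a longer coding stretch of 159 bases, identity was highest between Neurod1 and Neurod2 (88.1%) and between Neurog1 and Neurog2 (85.5%), and lowest between Neurog2 and Neurod4 (53.5%). The longest identical run between any pair was 26 bases, between Neurog1 and Neurog2, and no word of 31 bases, the default word length of Kallisto, was shared by any pair of these 6 genes. Neurog1, Neurog2, Neurod4, Btg2 and Sstr2 shared no such word with any other annotated gene. Neurod1 was the exception, with 11.2% of its words shared with 4 other genes, among them Cerkl, whose annotated span on chromosome 2 includes Neurod1. Eomes shared 2.59% and Insm1 0.982% of their words with other genes.

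The levels set the late neuronal factors far above the progenitor factors. As means over the 15 libraries, on the length-scaled TPM scale, Neurod6 stood at 579 ± 78.7 TPM (SD, n = 15), rank 210 among the 15586 genes with a mean of at least 1 TPM, and Neurod2 at 181 ± 19.1 TPM, rank 748. The ranges of these 2 genes did not overlap, and both lay above every other member in every library. Insm1 (30.1 ± 5.17 TPM), Eomes (28.5 ± 11.2 TPM), Sstr2 (23.7 ± 4.92 TPM), Neurod1 (21.4 ± 7.53 TPM), Neurog2 (19.2 ± 6.60 TPM) and Btg2 (13.03 ± 2.09 TPM) followed, and the ranges of neighbours in this order overlapped. Neurod4 (1.05 ± 0.595 TPM) and Neurog1 (0.214 ± 0.238 TPM) were close to the bottom of the detected range. In dissected tissue, fewer cells of a type and less RNA per cell cannot be told apart, so each of these levels mixes both.

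The order of the 4 groups was not resolved for any of the 10 genes. Of the 30 pairs of groups that were neighbours in the order of group means, all 30 had overlapping ranges, and in all 30 the intervals of mean ± SD overlapped. Neighbours have close means and the groups are small, so such overlap was likely beforehand. The same count was not made over all genes or for groups that were not neighbours. AVP females had the highest group mean for 7 of the 10 genes, Neurod2 and Neurod6 were highest in saline males, and Sstr2 was highest in AVP males.

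**Figure D1:**
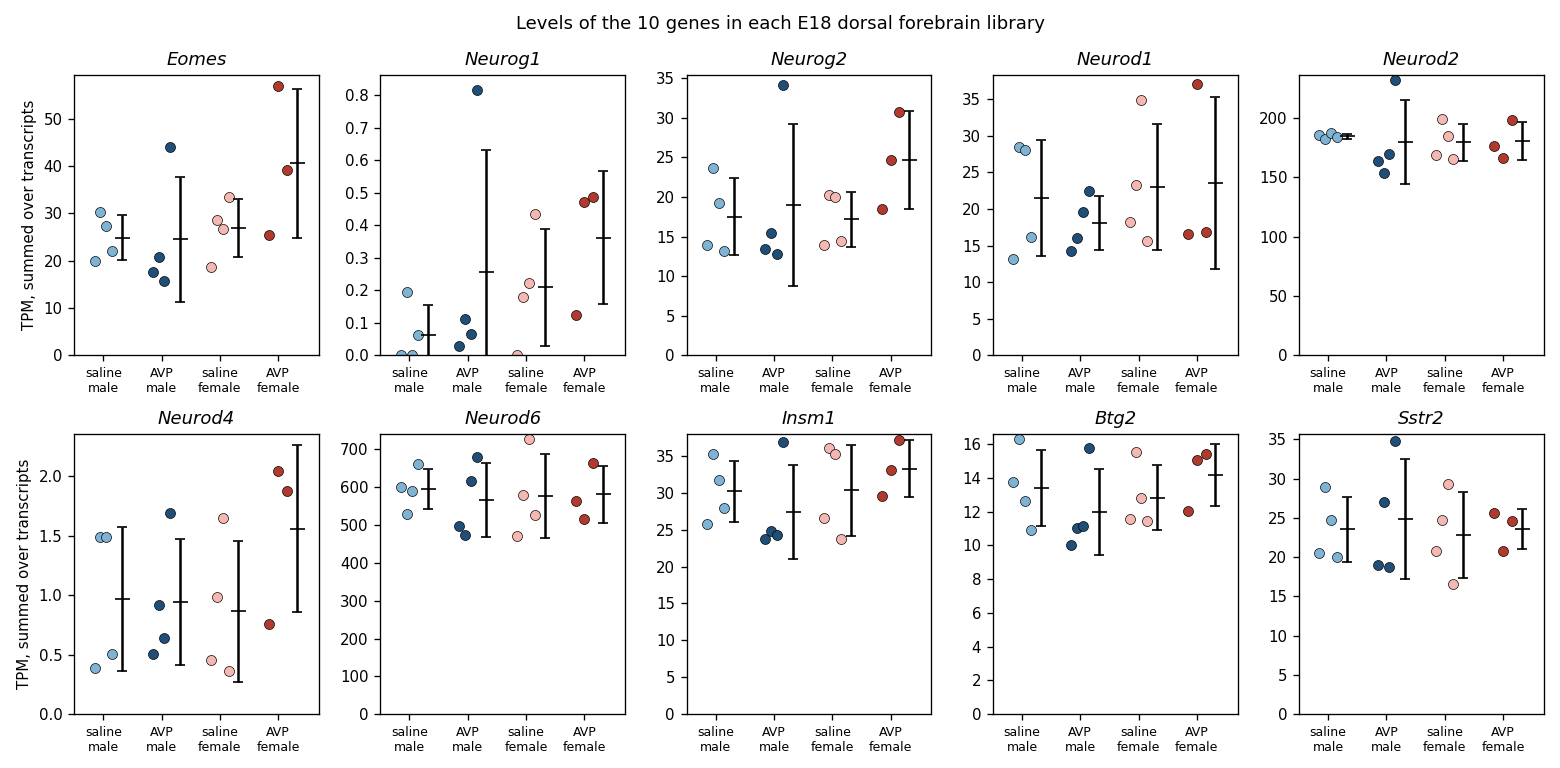
Level of each of the 10 genes in each library in TPM (vertical axes from 0), by group (4 saline male, 4 AVP male, 4 saline female and 3 AVP female libraries); points are libraries and bars give the mean ± SD, cut at 0 for Neurog1. The groups overlap in every panel, and AVP male 9 lies above the other 3 AVP males in all 10.

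Eomes, the T-box factor that defines intermediate progenitors, lies on chr9:118478212-118486132 (plus strand). It measured 17.7, 20.8, 15.7 and 44.2 TPM in AVP males 1, 2, 8 and 9 and 20.03, 30.2, 27.3 and 22.1 TPM in saline males 4, 5, 12 and 13. In AVP females 3, 10 and 11 it measured 25.5, 57.03 and 39.2 TPM, against 18.8, 28.7, 26.8 and 33.5 TPM in saline females 6, 7, 14 and 15. AVP males thus held both the lowest library and the second-highest one, and among females only AVP females 10 and 11 exceeded every saline female. The group means were 24.6 ± 13.2 TPM (n = 4) in AVP males, 24.9 ± 4.69 TPM (n = 4) in saline males, 40.6 ± 15.8 TPM (n = 3) in AVP females and 26.9 ± 6.13 TPM (n = 4) in saline females. Of its 3 transcripts the longest (3560 bases) carried most of the level, 76.3 to 86.1% of it in every library, with a mean of 78.8% in AVP males, 77.6% in saline males, 83.4% in AVP females and 79.9% in saline females. The transcript of 2869 bases carried 10.6 to 21.8% and that of 1647 bases 1.12 to 8.12%.

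The proneural factors act upstream of Eomes. Neurog2 (chr3:127633135-127635631, plus strand) measured 13.4, 15.5, 12.8 and 34.1 TPM in AVP males and 13.97, 23.6, 19.2 and 13.2 TPM in saline males, in the order of library numbers given for Eomes. For AVP females it measured 18.4, 24.7 and 30.7 TPM and for saline females 13.9, 20.2, 20.02 and 14.5 TPM. AVP male 9 had the highest level of the 15 libraries, with the other 3 AVP males below the median of the saline males, and the lowest AVP female lay below 2 of the 4 saline females. Its paralogue Neurog1 (chr13:56250478-56252163, minus strand) was barely detected: 0.0289, 0.113, 0.0657 and 0.817 TPM in AVP males, 0, 0.194, 0 and 0.0621 TPM in saline males, 0.125, 0.473 and 0.489 TPM in AVP females and 0, 0.18, 0.221 and 0.435 TPM in saline females. It was listed at 0 in saline males 4 and 12 and in saline female 6, and its highest level was again in AVP male 9.

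Neurod1 and Neurod4 are switched on after the neurogenins, as progenitors begin to differentiate. Neurod1 (chr2:79452521-79456751, minus strand) measured 14.2, 16.02, 19.6 and 22.5 TPM in AVP males, 13.2, 28.5, 28.1 and 16.2 TPM in saline males, 16.6, 37.1 and 16.9 TPM in AVP females and 18.2, 23.3, 34.9 and 15.6 TPM in saline females. Each group other than the AVP males held at least 1 library near or above 28 TPM beside others near 16 TPM, so the spread within groups was as wide as that between them. Neurod4 (chr10:130268152-130280240, minus strand) measured 0.505, 0.92, 0.644 and 1.69 TPM in AVP males, 0.389, 1.49, 1.49 and 0.502 TPM in saline males, 0.759, 2.04 and 1.88 TPM in AVP females and 0.451, 0.985, 1.65 and 0.365 TPM in saline females. Its highest library was AVP female 10, which was also the highest for Neurod1 and for Eomes.

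Insm1, a zinc-finger repressor needed to form intermediate progenitors, lies on chr2:146221921-146225020 (plus strand), and Btg2, which slows the cell cycle and recruits the CCR4-NOT deadenylase, on chr1:134075170-134079120 (minus strand). Insm1 measured 23.7, 24.8, 24.2 and 36.9 TPM in AVP males, 25.8, 35.2, 31.8 and 27.97 TPM in saline males, 29.5, 33.01 and 37.2 TPM in AVP females and 26.5, 36.00, 35.2 and 23.7 TPM in saline females. Within the AVP males, 3 libraries lay within 23.7 to 24.8 TPM and AVP male 9 stood alone above them. Btg2 measured 10.05, 11.01, 11.2 and 15.8 TPM in AVP males, 13.8, 16.3, 12.7 and 10.9 TPM in saline males, 12.05, 15.1 and 15.4 TPM in AVP females and 11.5, 15.5, 12.8 and 11.4 TPM in saline females. Its range over the 15 libraries, 10.1 to 16.3 TPM, was narrower in proportion than that of Eomes, 15.7 to 57.0 TPM.

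The 2 postmitotic factors had the smallest SD relative to their mean over the 15 libraries. Neurod2 (chr11:98325415-98329648, minus strand) measured 164, 154, 170.0 and 232 TPM in AVP males, 185, 182, 187 and 184 TPM in saline males, 177, 167 and 198 TPM in AVP females and 169, 199, 185 and 165 TPM in saline females. The 4 libraries labelled saline male lay within 182 to 187 TPM, and AVP male 9 was the highest of the 15 libraries. Neurod6 (chr6:55677822-55681263, minus strand) measured 498, 474, 617 and 679.7 TPM in AVP males, 600.1, 529, 589.7 and 659.8 TPM in saline males, 563, 516 and 662 TPM in AVP females and 471, 578, 728 and 526 TPM in saline females, with the lowest and the highest library both among the saline females. Sstr2 (chr11:113619342-113626028, plus strand) measured 18.97, 26.97, 18.7 and 34.8 TPM in AVP males, 20.6, 28.9, 24.7 and 20.05 TPM in saline males, 25.6, 20.8 and 24.6 TPM in AVP females and 20.8, 24.7, 29.3 and 16.6 TPM in saline females. Its 3 AVP female libraries fell inside the range of the saline females. The longest of its 3 transcripts (2143 bases) carried 86.6 to 98.1% of the Sstr2 level, and the shortest (1041 bases) was above 0 in a single library, a saline male, where it reached 11.04%.

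The genes were compared between AVP and saline with limma on log2(TPM + 0.5), fitted on all genes that reached 1 TPM in at least 50% of the libraries, with Benjamini-Hochberg adjusted p-values under 0.05 counted as calls. The pseudocount of 0.5 pulls fold changes of low genes toward 0. Of the 10 genes, 8 passed the filter in every fit; Neurog1 and Neurod4 did not and were examined by an exact permutation test.

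In males no difference in these genes passed the test. No member passed (0 of 8), where 0.00655% of all 15271 genes did, and none had an unadjusted p under 0.05, where 13.5% of all genes did. The estimates for the progenitor factors were -0.12 for Eomes (95% interval -0.80 to 0.55, limma adjusted p = 0.877), 0.031 for Neurog2 (-0.68 to 0.74), -0.15 for Insm1 (-0.51 to 0.20) and -0.16 for Btg2 (-0.53 to 0.21), as log2 fold changes of AVP over saline. For the differentiation factors they were -0.19 for Neurod1 (-0.78 to 0.40), -0.057 for Neurod2 (-0.32 to 0.21), -0.080 for Neurod6 (-0.36 to 0.20) and 0.044 for Sstr2 (-0.43 to 0.52). The median over the 8 genes was -0.10, the same as the median of all genes tested, -0.10, and 2 of 8 estimates were positive against 26.4% of all genes. With median-of-ratios scaling the Neurod2 estimate became 0.056 and that of Neurod6 0.033, and with quantile normalization that of Eomes became 0.0084. No member had groups that did not overlap (0 of 8), where 7.27% of all genes did.

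Single libraries moved the male estimates. Without AVP male 9 the estimates became -0.44 for Eomes, -0.29 for Neurog2, -0.30 for Insm1, -0.29 for Btg2, -0.30 for Neurod1, -0.19 for Neurod2, -0.17 for Neurod6 and -0.13 for Sstr2, so that all 8 were negative. Of these, 3 of 8 then had an unadjusted p under 0.05, where 19.6% of all genes did, and none passed the adjusted threshold, the lowest limma adjusted p being 0.166, for Neurod2. Without the library labelled saline male 12, which went against its sex label, the estimates were -0.074 for Eomes, 0.088 for Neurog2, -0.12 for Insm1 and -0.040 for Neurod1, and no member passed. Other libraries also moved single genes: Neurod1 was at -0.39 without saline male 4 and at -0.032 without saline male 5, Neurog2 at 0.19 without saline male 5, and Eomes at 0.045 and Sstr2 at 0.16 without AVP male 8. Libraries 1 to 7 gave Eomes a difference of -0.35 and Neurog2 one of -0.33 with 2 libraries in each group, and libraries 8 to 15, which include AVP male 9 and the library labelled saline male 12, gave 0.10 and 0.39. AVP male 9 also held the highest summed level of the 12 dividing-cell markers, 495 TPM, against 303 to 350.0 TPM in the other AVP males and 327 to 429 TPM in saline males. The part of that difference in cell content was not tested.

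In females the estimates for Eomes and Neurog2 were the largest of the 8 genes fitted, and neither passed. Eomes was 0.54 higher in AVP females on the log2 scale (95% interval -0.10 to 1.18, limma adjusted p = 0.999), and Neurog2 was 0.50 higher (0.016 to 0.98, limma adjusted p = 0.999). No member passed the adjusted threshold (0 of 8), as for 0% of the 15132 genes tested, and 1 of 8, Neurog2, had an unadjusted p under 0.05, where 4.51% of all genes did. That count was 0 in 5 of 9 other settings (no filter, median-of-ratios scaling, limma without the trend, the run of column numbers as a covariate, and 1 fit of all 15 libraries) and in 4 of 7 fits with 1 library left out (saline female 6, AVP female 10, AVP female 11 or saline female 15). The other estimates were 0.15 for Insm1 (-0.25 to 0.54), 0.14 for Btg2 (-0.22 to 0.50), -0.0063 for Neurod1 (-0.79 to 0.78), 0.0076 for Neurod2 (-0.22 to 0.24), 0.023 for Neurod6 (-0.33 to 0.38) and 0.073 for Sstr2 (-0.37 to 0.51). The median over the 8 was 0.11 with 7 of 8 positive, beside a median of -0.051 and 36.9% positive over all genes. The sign of the Neurod1 estimate turned under median-of-ratios scaling (0.022) and quantile normalization (0.044), and that of Neurod6 with the run of column numbers as a covariate (-0.0051). No member had groups that did not overlap (0 of 8), where 5.55% of all genes did.

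The size of the Eomes and Neurog2 estimates also rested on single libraries. Leaving out 1 library at a time gave 0.26 (without AVP female 10) to 0.83 (without AVP female 3) for Eomes, and 0.33 (without AVP female 11) to 0.69 for Neurog2. Among libraries 1 to 7 (1 AVP and 2 saline females) the differences were 0.13 for Eomes and 0.13 for Neurog2, and among libraries 8 to 15 (2 and 2) they were 0.65 and 0.68. All 12 dividing-cell markers were also higher in AVP females, with a median of 0.32, 4 at an unadjusted p under 0.05 and none past the adjusted threshold, and their sum was 393 to 494 TPM in AVP females against 316 to 410.2 TPM in saline females. All 8 meningeal fibroblast markers were higher (median 0.84, sum 339 to 464 TPM against 183 to 242 TPM), all 5 red blood cell genes tested were higher (median 1.04, sum 5130 to 13658 TPM against 2241 to 5707 TPM), and all 10 striatal markers were lower (median -0.47, sum 89.4 to 207 TPM against 135 to 233 TPM), none of them past the adjusted threshold in limma and, in that order, 7, 5 and 1 at an unadjusted p under 0.05. All 8 endothelial markers and all 5 choroid plexus genes tested were higher too (medians 0.37 and 1.71), the choroid plexus sum being 27.9 to 2278 TPM against 8.98 to 959 TPM. The part of these differences in tissue content in the Eomes and Neurog2 values was not tested.

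**Figure D2:**
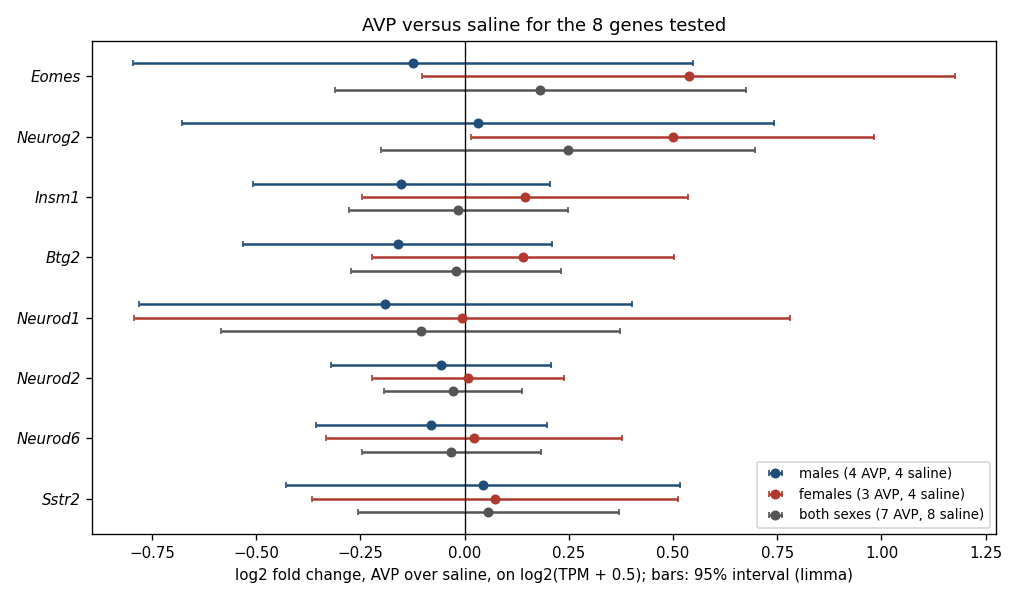
log2 fold change of AVP over saline (horizontal axis, on log2(TPM + 0.5), limma) for the 8 genes tested, with bars for the 95% interval, in males (4 against 4 libraries), females (3 against 4) and both sexes (7 against 8). Every interval crosses 0 except that of Neurog2 in females (0.016 to 0.98), which did not pass the adjusted threshold, and the intervals of Neurod2 and Neurod6 are the narrowest.

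For the 2 genes below the filter, no difference passed the exact two-sided permutation test. Neurog1 was 0.33 higher on the log2(TPM + 0.5) scale in AVP males (exact p = 0.457) and 0.29 higher in AVP females (exact p = 0.371). For Neurod4 the difference was 0.0058 in males (exact p = 0.971) and 0.63 in females (exact p = 0.2). The smallest p these group sizes allow was 0.0286. Most of the Neurog1 difference in males came from 1 library, AVP male 9, at 0.817 TPM.

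Over both sexes, with sex as a term, the estimates stayed small. None of the 8 members passed (0% of all 15078 genes did) and none had an unadjusted p under 0.05 (10.4% of all genes did). Neurog2 had the largest estimate, 0.25 (95% interval -0.20 to 0.70), followed by Eomes at 0.18 (-0.31 to 0.67). Without AVP male 9 these were 0.11 and 0.048, and without AVP female 10 Eomes was at 0.029. The intervals for the late factors were narrower, -0.19 to 0.14 around -0.027 for Neurod2 and -0.25 to 0.18 around -0.033 for Neurod6. This fit treats brains as independent and uses TPM without further scaling. In it the interval for these 2 genes leaves out a change beyond 0.25 on the log2 scale in either direction. For Eomes it does not leave out one of 0.67. Within 1 sex the intervals were wider, down to -0.32 for Neurod2 and -0.36 for Neurod6 in males and up to 0.38 for Neurod6 in females. Insm1 was at -0.015, Btg2 at -0.022, Neurod1 at -0.11 and Sstr2 at 0.057, and the estimates of Insm1, Btg2, Neurod2 and Neurod6 turned positive, to between 0.043 and 0.059, under median-of-ratios scaling. Without the library labelled saline male 12, Neurod1 was at -0.023 and Insm1 at 0.010.

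Whether the AVP difference itself differed between the sexes was tested as an interaction of treatment and sex. All 8 estimates were positive, as for 61.2% of all genes, from 0.029 for Sstr2 to 0.66 for Eomes (95% interval -0.30 to 1.62, limma adjusted p = 0.896), with 0.47 for Neurog2 (-0.43 to 1.37), and none passed either the adjusted threshold (0% of all genes did) or an unadjusted p under 0.05 (4.14% of all genes did). Under median-of-ratios scaling Neurod2 and Sstr2 became negative (-0.017 and -0.051). Without AVP male 9 the estimates were 0.98 for Eomes and 0.79 for Neurog2, with 2 of 8 members at an unadjusted p under 0.05, where 6.89% of all genes were, and none past the adjusted threshold. Without the library labelled saline male 12, Neurod1 was at 0.033. The larger female values for Eomes and Neurog2 were therefore not shown to differ from the male ones. Between the sexes, averaged over treatment, Eomes was 0.41 higher in females (95% interval -0.087 to 0.90, limma adjusted p = 0.99997), 0 of 8 members passed, 0% of all genes did, and no member had an unadjusted p under 0.05, where 1.39% of all genes did. In that comparison the number of all genes called went from 0 to 7 when the library labelled saline male 12 was left out, and the number of members stayed at 0. The number was also 7 without saline female 6, 6 without saline female 7, 14 or 15, and 1 without AVP male 8. Why it rose was not tested. With every library kept under its label, even the female-specific transcript Xist was not called, so the 0 of 8 members in this comparison carries little weight.

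The 10 genes did not vary alike, even among libraries of 1 group. The SD of log2 levels within groups was 0.48 for Eomes, 0.45 for Neurog2 and 0.50 for Neurod1, above 96.1%, 93.8% and 95.3% of genes of like level, whose median SD was 0.18 in the case of Eomes. The SD was 0.32 for Sstr2, 0.25 for Insm1, 0.23 for Btg2, 0.22 for Neurod6 and 0.16 for Neurod2, above 87.8%, 78.7%, 56.1%, 88.0% and 66.5% of genes of like level in that order, so that Neurod6 had a small SD that was nonetheless large for its level. Neurod4 (0.57) and Neurog1 (0.42), close to the bottom of the detected range, lay above 72.6% and 70.3%. AVP male 9 was among the 3 highest libraries for 9 of the 10 genes, AVP female 11 for 7 and AVP female 10 for 5. AVP male 1 was among the 3 lowest for 8 of them and saline female 15 for 5. AVP libraries were thus found at both ends.

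**Figure D3:**
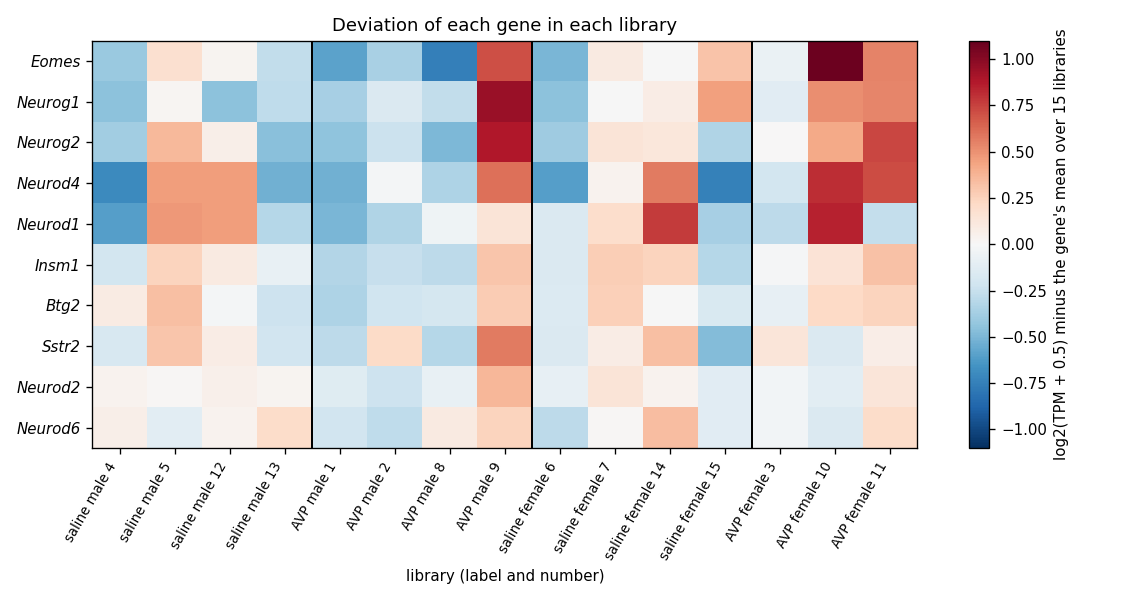
Deviation of each gene (rows) in each of the 15 libraries (columns, grouped as saline male, AVP male, saline female and AVP female) from its mean over the 15 libraries, as log2(TPM + 0.5), with higher values in red and lower in blue. AVP male 9 is high in nearly all rows and AVP male 1 is low, and the rows of Neurod2 and Neurod6 are the palest.

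Across libraries the genes followed Eomes to different degrees, given here as Pearson r of log2(TPM + 0.5) over the 15 libraries, a description in which the values share dissection and library. Neurog1 (0.85) and Neurog2 (0.83) were closest to Eomes, and Neurog2 was 28th of 15077 genes ranked. Neurod4 (0.72), Btg2 (0.72, 271st) and Insm1 (0.69, 376th) came next, then Neurod1 (0.54) and Neurod2 (0.42), and Sstr2 (0.35) and Neurod6 (0.19) were farthest. Without AVP female 10 and AVP male 8, the libraries farthest from the median of Eomes, r was 0.86 for Neurog2, 0.70 for Btg2, 0.70 for Insm1 and 0.53 for Neurod6. Among libraries 1 to 7 and 8 to 15, r was 0.98 and 0.78 for Neurog2 and 0.48 and -0.32 for Neurod6, so that the sign for Neurod6 was not the same in both sets. With the 4 group means removed, r with Eomes was 0.81 for Neurog2 and 0.21 for Neurod6.

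The genes outside the 10 most like Eomes were Tfap2c (r = 0.91), an AP-2 transcription factor, Tead2 (0.90), a DNA-binding partner of YAP, 2600014E21Rik (0.89), a long non-coding RNA on chromosome 2, Nrn1 (0.88), which encodes the neurite outgrowth protein neuritin, and Ckap2 (0.88), a spindle protein of dividing cells. Tfap2c ranged from 3.04 to 11.5 TPM and Tead2 from 24.4 to 60.6 TPM over the 15 libraries. Without the library labelled saline male 12, 4 of these 5 remained among the 5 most alike, and Ckap2 was 8th. The mean log2 level of the dividing-cell list followed Eomes with r = 0.85, or 0.82 without AVP female 10 and AVP male 9.

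**Figure D4:**
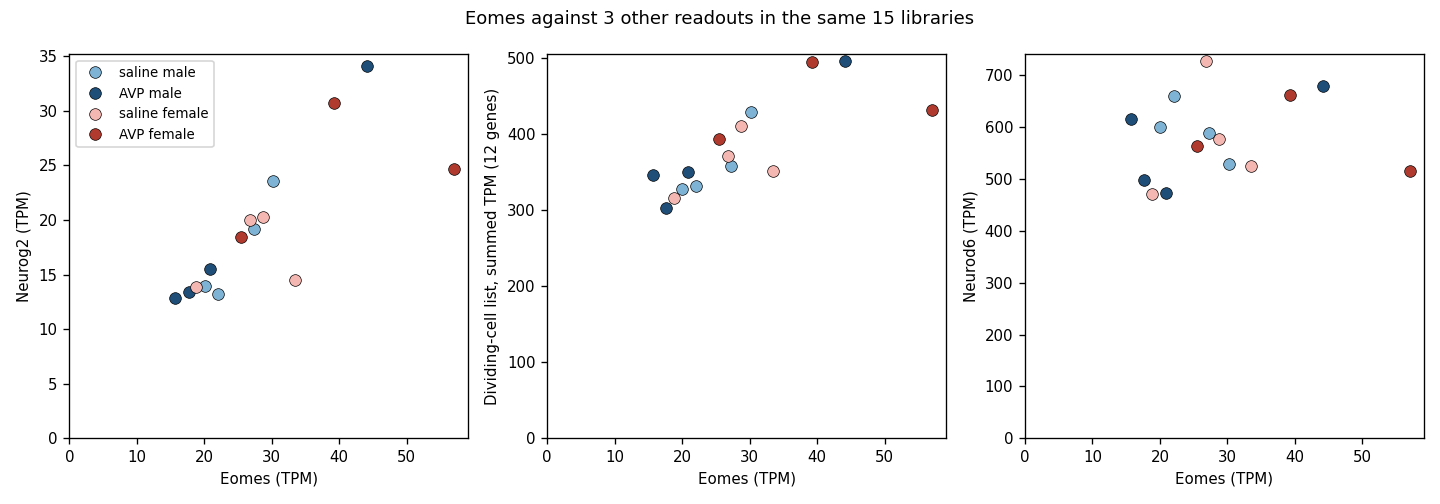
Eomes (horizontal axes, TPM) against Neurog2 in TPM, the summed TPM of 12 dividing-cell markers, and Neurod6 in TPM (vertical axes from 0), with 1 point a library, coloured by group. Neurog2 and the dividing-cell sum are higher where Eomes is higher. On log2 values r with Eomes is 0.83 for Neurog2. It is 0.85 for the mean log2 level of the dividing-cell genes, which is not the plotted sum. Neurod6 shows little relation to Eomes (r = 0.19).

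Neurod6 was closest to Neurod2 among the 10 (r = 0.72, 32nd of 15077), with 0.83 among libraries 1 to 7 and 0.65 among libraries 8 to 15. Insm1 followed at 0.51. Outside the 10, the genes most like Neurod6 were 9130024F11Rik (r = 0.84), Peli1 (0.83), a ubiquitin ligase, Dnttip2 (0.81), Tox (0.80), a nuclear factor of the HMG-box family, and Ptp4a1 (0.79), a phosphatase, and all 5 remained the 5 most alike without the library labelled saline male 12.

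Since Neurod2 and Neurod6 moved together across libraries, their promoters were read from the RefSeq windows on GRCm38.p6, and 9 of the 10 genes had a window. In the 240 bases printed, from 250 to 11 bases upstream of the annotated start, 5′ to 3′ on the strand of the gene, capitals mark the E-box letters CANNTG, the motif that bHLH factors bind.
Neurod2, chr11:98329656-98329895, minus strand: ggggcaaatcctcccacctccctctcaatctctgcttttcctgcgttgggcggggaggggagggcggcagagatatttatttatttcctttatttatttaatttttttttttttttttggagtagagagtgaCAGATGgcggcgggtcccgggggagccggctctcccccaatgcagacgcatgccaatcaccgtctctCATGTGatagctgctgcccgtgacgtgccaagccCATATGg
Neurod6, chr6:55681274-55681513, minus strand: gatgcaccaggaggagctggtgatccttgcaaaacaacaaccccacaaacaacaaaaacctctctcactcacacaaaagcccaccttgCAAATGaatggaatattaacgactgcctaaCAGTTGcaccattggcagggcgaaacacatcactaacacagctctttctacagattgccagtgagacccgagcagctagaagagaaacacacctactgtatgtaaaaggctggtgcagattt
Over the 250 upstream bases Neurod2 held 3 matches to CANNTG, Neurod6 held 2 and Neurod1 held 1, and the windows of Eomes, Neurog1, Neurog2, Neurod4, Btg2 and Sstr2 held 0. The motif reads the same on both strands, and it was common, with at least 1 match in 66.2% of 32851 windows of this length, 2 or more in 31.8% and 3 or more in 12.2%. The form CAGATG, read on either strand, was in 14.4% of windows and, among the members, in that of Neurod2. These are matches of letters, and no binding was measured.

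The pathway around these genes was examined through lists of partners and targets, and no gene of any list passed the adjusted threshold in males, females or both sexes together (limma). Of the 18 other genes of intermediate progenitors and newborn neurons, 7 had positive estimates in males (median -0.11, 1 at an unadjusted p under 0.05) and 13 in females (median 0.10, none), beside medians of -0.10 and -0.051 for all genes. The counts of these lists and of those that follow stand beside 26.4% of all genes with positive estimates and 13.5% at an unadjusted p under 0.05 in males, and 36.9% and 4.51% in females. Their 2 highest members, the SoxC factors Sox4 and Sox11 that turn on neuronal genes, were at 0.055 (95% interval -0.12 to 0.23) and 0.047 (-0.33 to 0.43) in males and at 0.067 (-0.24 to 0.37) and 0.012 (-0.22 to 0.24) in females. Their sum was 852 to 1149 TPM in AVP males, 919 to 992 TPM in saline males, 947 to 983 TPM in AVP females and 847 to 1058 TPM in saline females.

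Notch signalling keeps neighbouring cells as progenitors and is opposed by the neurogenins. In males 3 of its 21 genes had positive estimates (median -0.17, 3 at an unadjusted p under 0.05), and in females 13 did (median 0.084, 1). Its highest genes, Dtx4, a Deltex family protein, and Numbl, a relative of the Notch inhibitor Numb, were at -0.30 (-0.63 to 0.019) and -0.15 (-0.32 to 0.016) in males and at -0.32 (-0.66 to 0.013) and -0.27 (-0.59 to 0.045) in females. Over both sexes they were at -0.31 (-0.53 to -0.093) and -0.21 (-0.37 to -0.049), with a limma adjusted p of 0.462 for each. In that fit 3 of the 21 genes had an unadjusted p under 0.05, where 10.4% of all genes did. E proteins pair with the neurogenins to bind DNA, and Id proteins take E proteins away from them. Of these 7 genes, 2 were positive in males (median -0.12, 1 unadjusted) and 6 in females (median 0.17, none), with the inhibitor Id2 at -0.051 (-0.29 to 0.18) and 0.23 (-0.0053 to 0.46) and the E protein Tcf4 at -0.31 (-0.52 to -0.10, limma adjusted p = 0.304) and 0.16 (-0.21 to 0.53).

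Among other neural bHLH factors 6 of 11 were tested, with 0 positive estimates in males (median -0.12, none unadjusted) and 2 in females (median -0.11, 2 unadjusted). Bhlhe22, a factor of upper-layer and area identity, was at -0.050 (-0.27 to 0.17) and -0.083 (-0.41 to 0.24), and Olig1, of the oligodendrocyte lineage, at -0.11 (-0.62 to 0.40) in males and -0.87 (-1.50 to -0.25, limma adjusted p = 0.999) in females. Oligodendrocyte precursor markers were lower in females for all 6 genes (median -0.50, 2 unadjusted), with sums of 55.9 to 112 TPM in AVP females and 96.2 to 147 TPM in saline females. Tbr1, the T-box factor that follows Eomes in deep-layer neurons, was at -0.00040 (-0.25 to 0.25) in males and 0.013 (-0.18 to 0.20) in females, and Tbx2 at -0.11 (-0.57 to 0.35) and 0.30 (-0.17 to 0.77), and these 2 were the T-box genes tested of 4.

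Btg2 recruits the CCR4-NOT complex through its CAF1 subunits, Cnot7 and Cnot8. Of 6 tested genes of the BTG and TOB family and their CNOT partners, 1 was positive in males (median -0.13, 1 unadjusted) and 3 in females (median -0.0024, none). Cnot7 was at -0.15 (-0.43 to 0.12) in males and 0.030 (-0.24 to 0.30) in females, and Cnot8 at -0.11 (-0.25 to 0.033) and -0.044 (-0.27 to 0.18). For Sstr2, the ligand Sst had the largest male estimate of the named pathway genes: 207 ± 82.9 TPM in AVP males and 110 ± 25.2 TPM in saline males (n = 4 each), a log2 difference of 0.86 (0.29 to 1.44, limma adjusted p = 0.304). In females it was 111 ± 82.8 TPM (n = 3) and 142 ± 51.5 TPM (n = 4), a difference of -0.53 (-1.56 to 0.49). Sst is made by interneurons, whose marker list without Sst summed to 411 to 590.1 TPM in AVP males and 494 to 616 TPM in saline males. Npy, at a mean of 367 TPM over the libraries, was by far the largest part of that sum. Gene by gene, 5 of the 9 interneuron markers, Sst included, were positive in males, with a median of 0.0058 beside -0.10 for all genes. The receptor Sstr1 was at -0.17 (-0.70 to 0.36) and -0.65 (-1.62 to 0.33), and over the whole somatostatin list 3 of 5 tested genes were positive in males (median 0.097, 1 unadjusted) and 0 of 4 in females (median -0.37, none).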

How the data were processed

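The deposited table holds transcript-level TPM values, which the authors made with Kallisto (version 0.43.1) against GENCODE M16 (GRCm38) from strand-specific paired-end reads trimmed with Trim Galore (version 0.4.1). TPM keeps no depth, so read depth and counting error are unknown here. The 133849 transcripts were summed to 53337 genes by the GENCODE M21 annotation; 404 transcripts without a gene there held 0.154 to 0.199% of TPM. No pair of libraries was identical, with r between 0.945 and 0.975 over genes. Groups came from the labels. AVP and saline were compared with limma (version 3.58.1, R 4.3.3, mean-variance trend, two-sided) on log2(TPM + 0.5) within each sex, over both sexes with sex as a term, and as an interaction, on all genes at 1 TPM or more in at least 50% of the libraries, with Benjamini-Hochberg adjustment and a threshold of 0.05. The scripts were tested on simulated data. Genes below the filter were compared by an exact permutation test. Alternatives were other pseudocounts, filters and scalings, the run of column numbers as a covariate, and each library left out. Named genes were the 10 members, the 2 with the highest mean TPM in each pathway list, and the 5 others most like Eomes and Neurod6. The members and lists were chosen with earlier results of these data known.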

Additional observations from a re-analysis of the deposited data

Results flagged for a closer look

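In the group of AVP males, 1 library lay far from the other 3 for 3 of the genes, by Dixon's criterion (gap to the nearest library over the whole range of the group above the 95% critical value). AVP male 9 held 0.817 TPM of Neurog1 (gap of 0.894 of the range), 34.1 TPM of Neurog2 (0.876) and 36.9 TPM of Insm1 (0.916). Groups of 4 libraries were examined for the 10 genes, 30 in all, and chance alone gives about 1 in 20, or 1.5 of them. These checks were not independent, because the genes were measured in the same libraries and several vary together. The 3 flags are 1 library and not 3 separate events.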

How the results depend on the processing

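No member passed the adjusted threshold under any alternative or with any 1 library left out, but the sign of estimates near 0 depended on the settings. Under median-of-ratios scaling it turned for Neurod2 (0.056), Neurod6 (0.033) in males, Neurod1 (0.022) in females, Neurod2 (0.048), Neurod6 (0.043), Insm1 (0.059), Btg2 (0.051) over both sexes and Neurod2 (-0.017), Sstr2 (-0.051) in the interaction. Under quantile normalization it turned for Eomes (0.0084) in males, Neurod1 (0.044) in females, Neurod2 (0.013), Insm1 (0.078), Btg2 (0.070) over both sexes and Sstr2 (-0.055) in the interaction. With the run of column numbers as a covariate, Neurod6 was at -0.0051 in females. Median-of-ratios scaling moved the median of all genes in males from -0.10 to 0.0034, and the cause of the other turns was not tested.

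With 1 library left out at a time, each member estimate in each fit was counted as 1 value. The sign turned in 10 of 64 values in males, 11 of 56 in females, 18 of 120 over both sexes, 10 of 120 in the interaction and 13 of 120 between the sexes. The lowest and highest values of the genes concerned were, in males for Eomes (-0.44 to 0.045), Neurod2 (-0.19 to 0.013), Neurod6 (-0.17 to 0.00066), Neurog2 (-0.29 to 0.19), Sstr2 (-0.13 to 0.16), and in females for Neurod1 (-0.38 to 0.21), Neurod2 (-0.062 to 0.064), Neurod6 (-0.076 to 0.14), Sstr2 (-0.067 to 0.20), and over both sexes for Btg2 (-0.077 to 0.037), Insm1 (-0.078 to 0.035), Neurod2 (-0.089 to 0.010), Neurod6 (-0.079 to 0.015), Sstr2 (-0.029 to 0.12), and in the interaction for Neurod1 (-0.19 to 0.40), Neurod2 (-0.0052 to 0.19), Sstr2 (-0.11 to 0.20), and between the sexes for Neurod2 (-0.046 to 0.038), Neurod6 (-0.069 to 0.036), Sstr2 (-0.11 to 0.029). The count of all genes called in males was 1, and it became 0 with a pseudocount of 1, a filter of 5 TPM in every library, the run covariate or 1 fit of all 15 libraries, and 2 without the trend. Left-out libraries gave 0 to 6 genes in males, 0 to 6 in females, 0 to 1 over both sexes, 0 to 1 in the interaction and 0 to 7 between the sexes. No paired analysis was possible because the labels do not tie libraries to litters. Read depth is unknown in TPM, so what it limits, above all for Neurog1 and Neurod4, could not be set.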
